A study of Mus musculus with 4 samples.

Results

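Sperm surface ADAM proteins and their partners were followed through 9 genes: ADAM2, ADAM3, ADAM5, ADAM18, ADAM30, ADAM32, ACE, TEX101 and LY6K. The genes were chosen by name, as testis ADAM proteins and partners of sperm migration, and earlier results of these data were known at the time. All 9 were found among the 25824 gene symbols of the count tables, with counts in each of the 4 mice, and the symbols are kept in capitals as the tables give them. Single cell RNA-seq was performed on testis cells of 2 WT mice (Ctcf wt/wt) and 2 Ctcf-cKO mice (Stra8-iCre-Ctcf f/Δ), all labelled C56BL/6J and 15 weeks old. The study's methods give an age range instead and allow WT littermates with floxed alleles, and they pooled the filtrates from 2 tubes of the Ctcf-cKO mouse. Stra8-iCre expresses Cre in male germ cells from before meiosis, f is a floxed and Δ a deleted Ctcf allele. Replicate numbers follow the labels, and 4 values in a row always stand in the order WT replicate 1, WT replicate 2, Ctcf-cKO replicate 1, Ctcf-cKO replicate 3.

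ADAM proteins (a disintegrin and metalloprotease) of germ cells are made as precursors in the endoplasmic reticulum, pair with each other, are cut during maturation and end on the sperm surface. Mouse sperm that lack ADAM3 on their surface do not pass the uterotubal junction, the gate between uterus and oviduct, and bind poorly to the zona pellucida. ADAM2 (fertilin beta) pairs with other ADAM proteins, TEX101 and LY6K are GPI-anchored proteins of the LY6/uPAR fold that act during ADAM3 maturation, and testis ACE, an isoform of angiotensin-converting enzyme, takes part in removing TEX101 from sperm.

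4 of the 6 ADAM genes lay side by side on the minus strand of chromosome 8 of GRCm38. From low to high coordinate these were Adam18 (chr8:24602246-24674755), Adam3 (chr8:24677225-24725852), Adam5 (chr8:24727093-24824369) and Adam32 (chr8:24836140-24948804), over 346559 bp in all. The gaps between neighbours were 2469, 1240 and 11770 bp and held no annotated gene in the GENCODE annotation. The broadly expressed Adam9 followed Adam32 after 806 bp. Adam2 lay on chromosome 14 (chr14:66027329-66077733, minus strand), Tex101 on chromosome 7 (chr7:24668007-24676675, minus strand) and Ly6k on chromosome 15 (chr15:74796874-74799986, minus strand). Adam30, on chromosome 3 (chr3:98160630-98164169, plus strand), was annotated with at most 2 exons, against 20 to 22 in the other ADAM genes. The antisense gene Gm17189 covers all of Ly6k, and Gm11651 overlaps Ace on the opposite strand. The sources used here do not say whether strand was used in counting.

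Ace (chr11:105967945-105989964, plus strand) has a somatic start and a testis start inside the gene. The annotated transcript Ace-202 begins 7263 bp downstream of the first base, in intron 12 of the 25-exon transcript, and shares its last exon start with that transcript. Counts from 3′ libraries therefore do not separate the testis and somatic forms of ACE, and ACE is given below as their sum. Start-site sequences from RefSeq (GRCm38.p6) were at hand for 2 of the 9 genes, TEX101 and ACE, which were also the only 2 of the 9 that passed the test between spermatocyte-like and round spermatid-like cells. Entries for ADAM2, ADAM3, ADAM5, ADAM18, ADAM30, ADAM32 and LY6K were missing. The 250 bases before each start are shown 5′ to 3′ on the strand of the gene, for Tex101 (chr7:24672051-24672300, minus strand), the somatic start of Ace (chr11:105967698-105967947) and the testis start of Ace (chr11:105974939-105975188). Capitals mark CCAAT boxes (CCAAT) and MYB motifs (CAACGG) in Tex101, and CCAAT boxes, TATAA and the CRE-like sequence TGAGGTCA in Ace, each searched on both strands.
Tex101: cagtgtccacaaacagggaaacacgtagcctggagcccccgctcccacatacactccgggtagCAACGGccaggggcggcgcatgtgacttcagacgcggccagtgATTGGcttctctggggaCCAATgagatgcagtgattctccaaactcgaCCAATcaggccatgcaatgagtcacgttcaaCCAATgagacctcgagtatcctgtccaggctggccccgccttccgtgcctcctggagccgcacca
Ace somatic start: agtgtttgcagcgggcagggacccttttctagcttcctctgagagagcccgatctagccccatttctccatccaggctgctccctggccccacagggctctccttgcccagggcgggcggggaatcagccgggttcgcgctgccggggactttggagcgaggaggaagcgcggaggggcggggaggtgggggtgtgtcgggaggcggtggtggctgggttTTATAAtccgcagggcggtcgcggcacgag
Ace testis start: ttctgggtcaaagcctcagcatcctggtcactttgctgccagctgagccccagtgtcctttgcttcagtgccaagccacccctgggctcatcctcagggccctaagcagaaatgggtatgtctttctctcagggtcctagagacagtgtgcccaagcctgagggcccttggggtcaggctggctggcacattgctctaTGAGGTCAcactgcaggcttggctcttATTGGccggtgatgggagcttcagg
Positions are counted from the start site, with -1 the base before it. The Tex101 start site used, chr7:24672050, lies inside the gene span given above and not at its 5′ end. The Tex101 window held 4 CCAAT boxes, between -144 and -61, and 1 MYB motif at -187 to -182. CCAAT was present in 33.8% and CAACGG in 4.05% of all 32851 windows of this length. The 2 Ace windows differed: TATAA, with its overlapping match on the other strand, lay at -30 to -25 of the somatic start, and was present in 22.8% of windows. TGAGGTCA lay at -52 to -45 of the testis start, with a CCAAT box at -25 to -21, and was present in 1.94% of windows. The CRE itself (TGACGTCA, 1.55% of windows) and the CTCF core motif (0.508%) were not among the letters of any of the 3 windows. GC content was 59.6% for Tex101, 67.2% for the somatic and 58.0% for the testis start of Ace, against a median of 52.4% over all windows.

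The libraries held 1593546 to 6701235 counts, and both Ctcf-cKO libraries were shallower than both WT libraries. Barcodes were taken as cells from 3 times the count at the plateau of each library upwards, which left 96, 241, 228 and 246 cells with median counts of 15357, 8251, 4668 and 2338. Between 1255 and 2112 barcodes per table were also present in another table, but only 1 barcode was a cell in more than 1 library. Ctcf itself was counted 110, 49, 4 and 7 times over all barcodes, and whether these 3′ tags lie in the deleted part is not given in the sources used here. The cells formed 10 clusters, from features that left out the 9 genes. Cluster 1, with 2, 19, 45 and 55 cells, could not be named and entered no class. Cluster 6 was spermatocyte-like (14 of 20 markers higher there), and clusters 3, 4 and 7 were round spermatid-like (16, 19 and 6 of 20). Clusters 0 and 2 had 7 and 10 elongating spermatid markers higher, but haemoglobin genes led cluster 0 and Sertoli markers stood among the 10 leading genes of cluster 2, so they are called elongating-marker clusters and not a cell type. In pseudotime, the order of cells by similarity from a chosen start, the clusters came as 6, 3, 4, 7, 0 and 2. The classes held 5, 31, 14 and 10 spermatocyte-like cells, 21, 166, 47 and 13 round spermatid-like cells and 58, 19, 71 and 104 cells of the elongating-marker clusters. The round spermatid-like cells came mostly from cluster 3 in WT replicate 2 (99 of 166) and mostly from cluster 4 in WT replicate 1 (15 of 21) and Ctcf-cKO replicate 1 (38 of 47). Markers of other cell types were in the classes too: the summed Leydig level in spermatocyte-like cells was 155, 221, 7306 and 2922 CPM (counts per 1000000 counts of the class), and the summed spermatocyte marker level there was 4344, 2457, 2065 and 965 CPM. By Leydig, macrophage, peritubular and endothelial genes, 27.2% to 100% of spermatocyte-like counts could be free RNA, the estimate being highest in Ctcf-cKO replicate 1. The part of free RNA and of these cells in the results below was not tested beyond the values given.

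Levels are counts of a gene in all cells of a class of 1 mouse, in CPM. In 3′ libraries they compare a gene between classes and mice, not 1 gene with another. ADAM2 was high in spermatocyte-like cells and low late. Its level in spermatocyte-like cells was 668, 471, 98.4 and 469 CPM, in round spermatid-like cells 184, 177, 136 and 135 CPM, and in the elongating-marker clusters 39.1, 15.1, 86.6 and 45.3 CPM. The order was the same in all mice except Ctcf-cKO replicate 1, where the round spermatid-like level was above the spermatocyte-like one. Over all 4 mice, ADAM2 averaged 427 ± 238, 158 ± 26.1 and 46.5 ± 29.7 CPM (SD, n = 4) in the 3 classes.

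ADAM18 and ADAM30 were counted less often and were also low in the elongating-marker clusters. ADAM18, a testis ADAM whose gene neighbours Adam3, was at 132, 56.7, 14.1 and 221 CPM in spermatocyte-like cells and at 54.2, 67.1, 42.6 and 49.9 CPM in round spermatid-like cells. Its elongating-marker level was 8.23, 0, 12.4 and 31.3 CPM, where 0 of 198518 counts in WT replicate 2 allows a level of up to 15.1 CPM. The spermatocyte-like values of ADAM18 rested on 17, 29, 2 and 8 counts. ADAM30 stood at 117, 84.1, 105 and 55.1 CPM, then at 43.3, 59.8, 46.5 and 107 CPM, and in the elongating-marker clusters at 4.11, 0, 12.4 and 10.4 CPM. The elongating-marker level of ADAM30 was below the round spermatid-like level in all 4 mice.

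ADAM3, ADAM5 and ADAM32 were counted in every class. For ADAM3, the surface protein whose absence stops sperm at the uterotubal junction, the spermatocyte-like level was 676, 593, 414 and 606 CPM, and the round spermatid-like level was 1023, 648, 581 and 706 CPM. In every mouse the round spermatid-like level was the higher of the 2, and the elongating-marker level, 647, 418, 300 and 481 CPM, was below it. This late difference depended on the scaling, at -0.05 (SE 0.52, adjusted p = 0.968) with TMM factors and 0.12 with DESeq2 size factors. ADAM5, a partner of ADAM2 and ADAM3, was at 1259, 874, 414 and 1047 CPM in spermatocyte-like cells, at 1123, 773, 713 and 1048 CPM in round spermatid-like cells and at 569, 468, 538 and 435 CPM later. The early classes overlapped for ADAM5, and its late CPM was below the round spermatid-like CPM in each mouse, but in the fit with TMM factors described below the late difference was -0.21 (SE 0.52, adjusted p = 0.829) and the early one 0.67 (SE 0.53, adjusted p = 0.439). ADAM32, also of testis, had 404, 448, 267 and 193 CPM, then 429, 322, 209 and 506 CPM, and 60.7, 90.7, 151 and 125 CPM in the elongating-marker clusters, again the lowest of the 3 in each mouse. Between clusters 0 and 2, ADAM5 was lower in cluster 2, the later of the pair, in each mouse: 651, 542, 690 and 494 CPM against 405, 116, 200 and 361 CPM.

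ACE ran in the other direction. It was counted at 15.5, 196, 176 and 138 CPM in spermatocyte-like cells, at 240, 267, 298 and 228 CPM in round spermatid-like cells and at 229, 348, 519 and 230 CPM in the elongating-marker clusters. Each mouse had more ACE in round spermatid-like than in spermatocyte-like cells. The low value in WT replicate 1 was 2 counts in 5 cells, and that library's spermatocyte-like cells also stood apart in the elongating spermatid markers, at 4150 CPM against 64914 to 77091 CPM in the other mice.

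TEX101 and LY6K were high early. The spermatocyte-like level of TEX101 was 552, 395, 674 and 0 CPM, where 0 of 36279 counts in the 10 cells of Ctcf-cKO replicate 3 allows a level of up to 82.7 CPM. In round spermatid-like cells it was 8.13, 30.7, 27.1 and 28.5 CPM, and in the elongating-marker clusters 6.17, 75.6, 24.7 and 41.8 CPM. In 3 mice the spermatocyte-like level was thus far above every later level, and TEX101 was among the 10 leading genes of cluster 6. LY6K, its binding partner, shared the early high level, 513, 311, 274 and 0 CPM, but remained counted later, at 74.5, 160, 108 and 85.6 CPM in round spermatid-like cells and 141, 166, 133 and 48.8 CPM in the elongating-marker clusters. LY6K in somatic-like cells was 0, 57.9, 9.86 and 24.4 CPM, rested on at most 5 counts a mouse, and was below the round spermatid-like level in each.

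**Figure D1:**
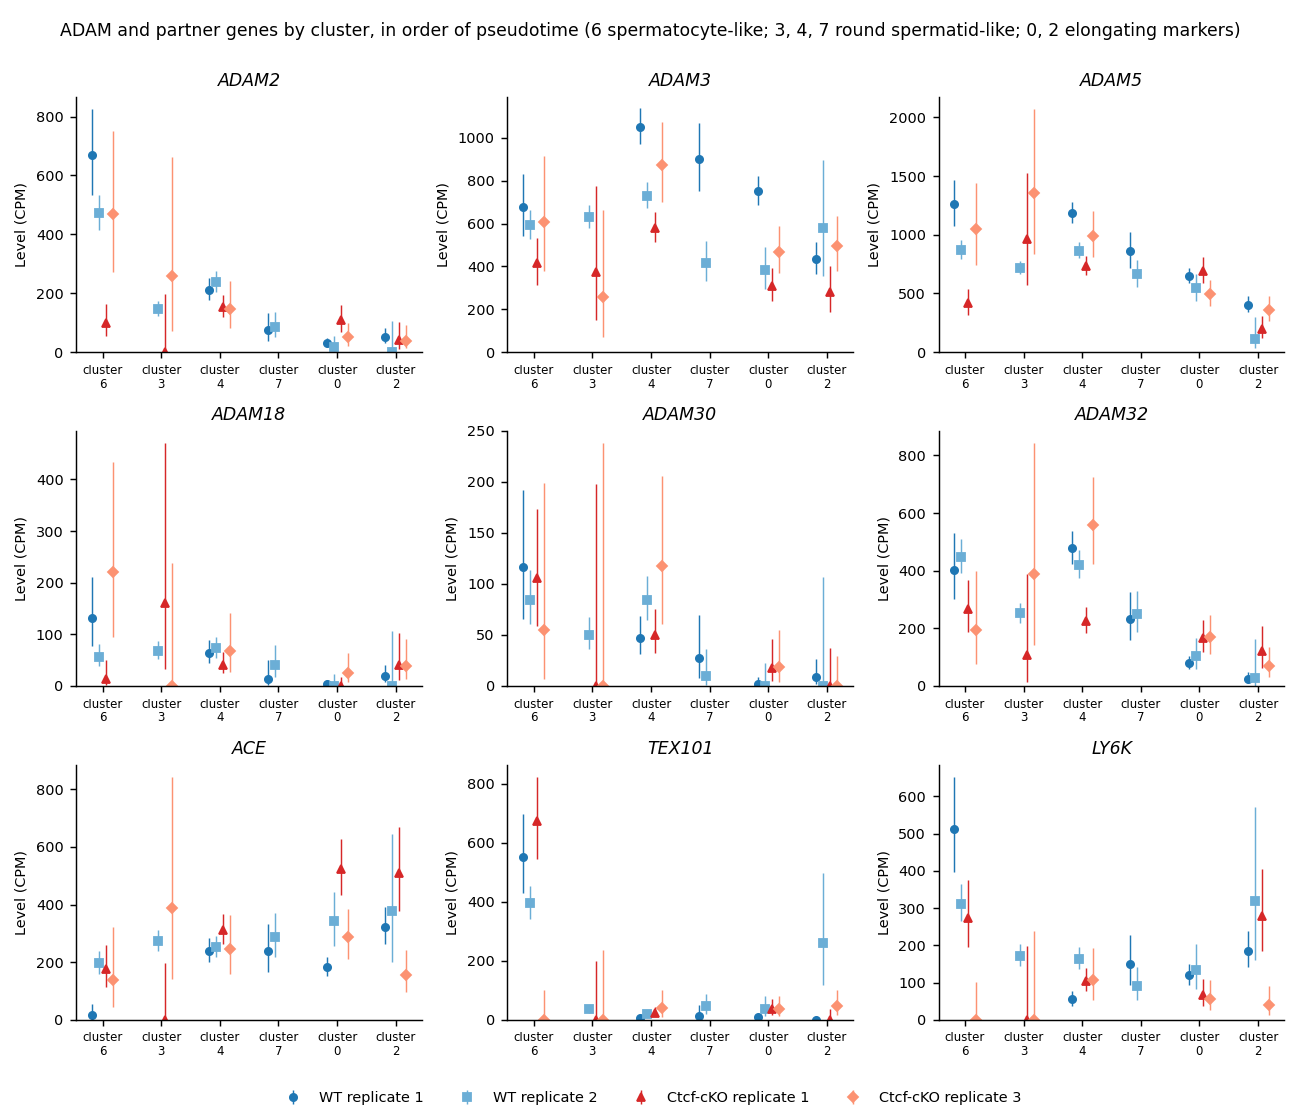
Level of the 9 genes in CPM (vertical axes, linear, each panel with its own scale) in the germ cell clusters in order of pseudotime (horizontal axis). Points are single mice, bars are 95% exact Poisson intervals that cover counting error only, and clusters with under 5 cells of a mouse have no point. TEX101 is at 395 to 674 CPM in cluster 6 of 3 mice and at 0 in Ctcf-cKO replicate 3, and ADAM2, ADAM18 and ADAM30 are low in clusters 0 and 2.

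The classes were compared within mice in 1 edgeR quasi-likelihood fit over all genes, with mouse as a block and Benjamini-Hochberg adjustment. Of 7475 genes tested, 14% were called between spermatocyte-like and round spermatid-like cells, 11.9% higher and 2.07% lower in the latter. Of the 9 genes, TEX101 fell by 3.75 on the log2 scale (SE 0.70, adjusted p = 0.000185) and ACE rose by 1.61 (SE 0.57, adjusted p = 0.0444). The other 7 lay between -0.75 (ADAM2, SE 0.54, adjusted p = 0.391) and 0.90 (ADAM3, SE 0.53, adjusted p = 0.267) and did not pass. The call of TEX101 held under all 15 alternatives run, with adjusted p from 3.41e-06 to 0.0278. The call of ACE held in 5 of 15, with adjusted p from 0.0162 to 0.144, and was lost without each of the 4 mice in turn, at 1.05 and 1.85 without WT replicates 1 and 2 and at 1.77 and 1.73 without Ctcf-cKO replicates 1 and 3. The classes were drawn from other genes of the same cells, so these p-values describe classes as clustered.

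From round spermatid-like cells to the elongating-marker clusters 14.7% of the 7475 genes were called, 5.26% higher and 9.48% lower. ADAM30 fell by 2.56 on the log2 scale (SE 0.86, adjusted p = 0.033). This call was lost without each mouse in turn (-2.71, -2.12, -2.91 and -2.46, adjusted p from 0.0614 to 0.221). The other 8 genes did not pass, among them ADAM18 at -1.70 (SE 0.85, adjusted p = 0.173), ADAM32 at -1.18 (SE 0.52, adjusted p = 0.114) and ADAM2 at -1.10 (SE 0.56, adjusted p = 0.181). With library totals alone these 3 were called, at -2.38, -1.76 and -1.74 (adjusted p = 0.0421, 0.00575 and 0.0177). That scaling called 1466 of all genes lower and 164 higher, against 709 and 393 with TMM factors, so these calls do not set the 3 genes apart. ADAM32 was also called without doublets (-1.43, adjusted p = 0.0212) and with free RNA subtracted (adjusted p = 0.0362), and ADAM2 at 2 times the plateau (-1.48, adjusted p = 0.0484). Scaling mattered for these contrasts. The median of all genes was 0.25 in the first contrast and -0.26 in the second with TMM factors, and -0.32 and -0.89 with library totals alone, and the share of calls that were higher moved from 85.1% and 35.7% to 59.6% and 10.1%. With DESeq2 size factors the medians were -0.15 and -0.10 and these shares 66.3% and 47.0%. TEX101 was called under each of the 3 scalings, between -7.46 and -3.20 over all alternatives, whereas ACE, at 1.61, 1.15 and 1.27, was called with TMM factors only.

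Depth per cell differed between mice, so each cell was also thinned to 900 counts and scored for at least 1 count. ADAM5 was then counted in 49.6% ± 17.6 and ADAM3 in 35.9% ± 15.6 (SD, n = 4) of round spermatid-like cells, against 17.1% ± 17.1 and 16.1% ± 2.91 of somatic-like cells, which should lack both. For ADAM32 and ACE the round spermatid-like share, 24.5% ± 10.4 and 19.4% ± 3.45, was within 1 SD of the somatic-like share, 19.5% ± 11.2 and 18.2% ± 10.4, so these shares do not set the classes apart. ADAM2 was counted in 28.4% ± 9.46 of spermatocyte-like cells and in 6.61% ± 5.60 of round spermatid-like cells, against 1.95% ± 3.91 of somatic-like cells. TEX101 had a share of 25.2% ± 25.1 in spermatocyte-like cells, of 0.753% ± 1.51 in round spermatid-like cells and of 4.17% ± 8.33 in somatic-like cells. The round spermatid-like and somatic-like values rested on WT replicate 2 alone, at 5 of 166 and 1 of 6 cells. LY6K, at 28.6% ± 24.6 and 13.3% ± 10.1 in spermatocyte-like cells and the elongating-marker clusters, stood above its somatic-like share of 0.391% ± 0.781 in the mean. In Ctcf-cKO replicate 3 it was counted in 0 of 10, 2 of 104 and 1 of 64 cells of these classes. The remaining shares in round spermatid-like cells were 3.91% ± 2.80 for ADAM18 and 3.52% ± 4.15 for ADAM30, against 2.89% ± 4.80 and 0.391% ± 0.781 of somatic-like cells. Before thinning, median counts per cell were 5362 to 34595 in round spermatid-like and 3049 to 7982 in somatic-like cells. Barcodes with under 200 genes, which hold free RNA, carried all 9 genes, for example ADAM3 at 962, 767, 598 and 594 CPM.

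**Figure D2:**
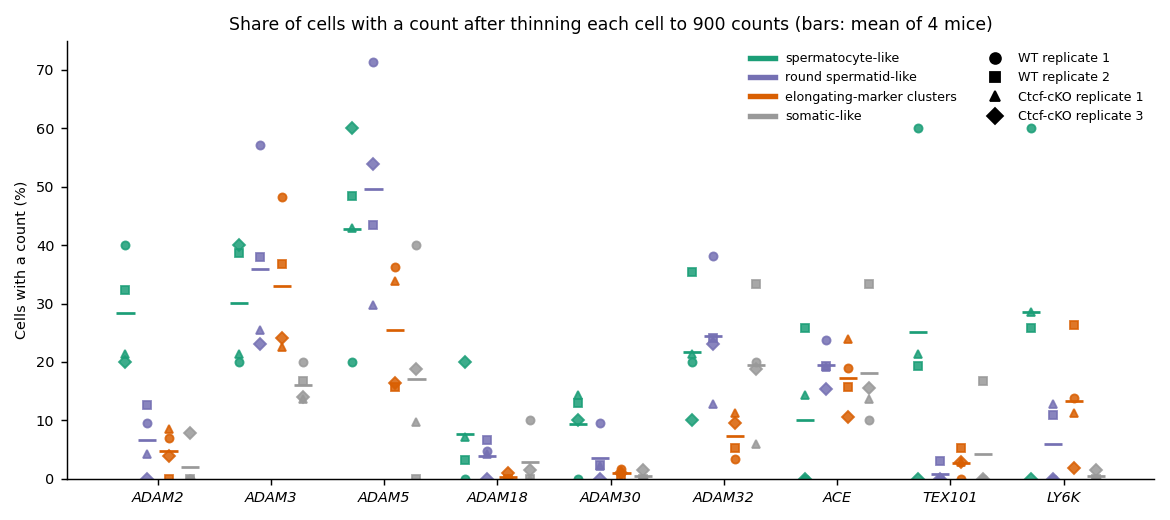
Share of cells with at least 1 count of each gene after each cell was thinned to 900 counts (vertical axis, percent), by class (colours) and mouse (symbols), with the mean of 4 mice as a bar. ADAM3 and ADAM5 have mean shares of 35.9% and 49.6% in round spermatid-like cells, and their spermatocyte-like means lie within 1 SD of these. ADAM32 and ACE have round spermatid-like means near those of somatic-like cells.

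Genotypes were first compared in the sum over all barcodes of each mouse, which uses the whole depth but mixes cell types, so that fewer cells of a type and less RNA per cell cannot be told apart. Barcodes taken as cells held 29.0%, 54.1%, 56.2% and 50.9% of these counts, and the rest came from barcodes below the limits. The part of those other barcodes in the differences was not tested. All 6 ADAM genes were lower in both Ctcf-cKO mice than in both WT mice, and of the 3 partners only LY6K was. The share of all genes that were so placed in CPM was not counted, so this split alone does not set the ADAM genes apart. ADAM2 was at 323, 258, 99.1 and 105 CPM, a log2 fold change of -1.44 (SE 0.20) or 2.72-fold lower, with an adjusted p of 0.000353 in the edgeR quasi-likelihood test. ADAM30 was at 66.4, 61.7, 24.9 and 31.4 CPM (-1.13, SE 0.29, adjusted p = 0.0139), and ADAM18 at 82.8, 69.1, 35.4 and 37.0 CPM (-1.003, SE 0.27, adjusted p = 0.0162). The values of the genotypes did not overlap for any of these 3 genes.

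The other ADAM genes fell less. ADAM3 was at 1032, 715, 486 and 514 CPM (-0.74, SE 0.19, adjusted p = 0.0141), ADAM5 at 1159, 861, 594 and 596 CPM (-0.69, SE 0.18, adjusted p = 0.0136) and ADAM32 at 396, 342, 199 and 242 CPM (-0.68, SE 0.19, adjusted p = 0.0204). The WT and Ctcf-cKO values of these 3 genes did not overlap, a split that was not counted over all genes. ACE, at 169, 233, 280 and 228 CPM, overlapped between genotypes and did not pass (0.40, SE 0.22, adjusted p = 0.202, edgeR). TEX101, at 39.4, 84.8, 63.3 and 26.4 CPM, also overlapped (-0.38, SE 0.43, adjusted p = 0.542). LY6K, at 116, 162, 96.9 and 70.9 CPM, was lower in both Ctcf-cKO mice and missed the threshold (-0.66, SE 0.26, adjusted p = 0.0774).

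So 6 of the 9 genes were called lower and 0 higher, while 28.5% of all 14552 genes tested were called, 10.1% lower and 18.4% higher. The median log2 fold change was -0.69 over the 9 genes and -0.04 over all genes. The calls rested on both Ctcf-cKO mice: without Ctcf-cKO replicate 1, or without Ctcf-cKO replicate 3, ADAM2 alone of the 6 passed, at -1.43 and -1.49, and the other 5 kept their sign, at -0.99 to -0.57 and at -1.31 to -0.71, with 1710 and 1989 genes called in place of 4150. Leaving out WT replicate 1 brought LY6K past the threshold (-0.93, adjusted p = 0.00914), as did testing with no filter on low genes (-0.79, adjusted p = 0.0146), and leaving out WT replicate 2 did so for ACE (0.66, adjusted p = 0.00837). Cell type markers moved as well. Round spermatid markers summed to 6512, 6106, 3998 and 3937 CPM and spermatocyte markers to 1357, 1257, 702 and 727 CPM, with 0 of 20 and at most 2 of 20 markers at 0. Leydig markers summed to 557, 259, 5085 and 4647 CPM, and elongating spermatid markers to 83233, 116362, 117279 and 120057 CPM.

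**Figure D3:**
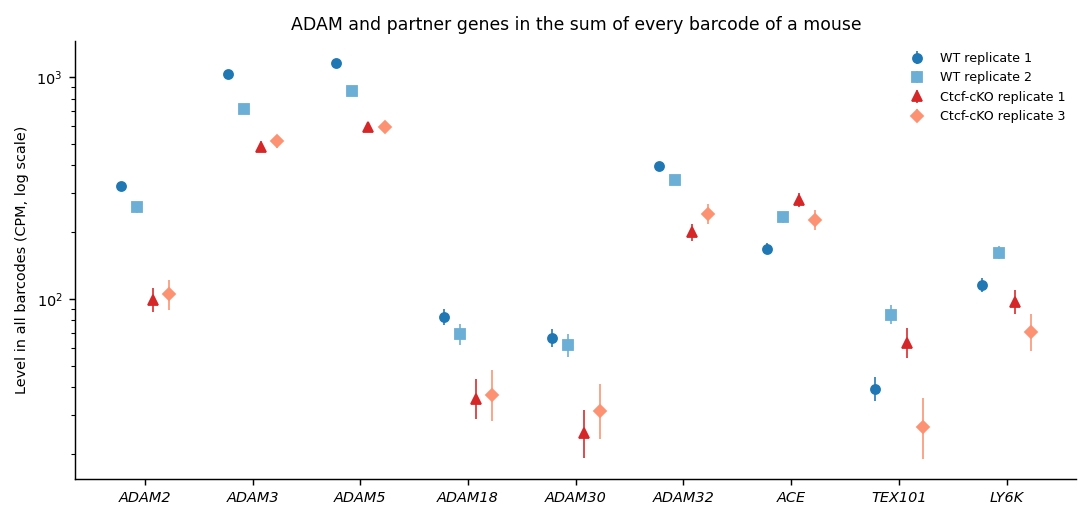
Level of the 9 genes in the sum over all barcodes (vertical axis, CPM, log scale) in each of the 4 mice, with 95% exact Poisson intervals that cover counting error only. The Ctcf-cKO points of all 6 ADAM genes lie below both WT points, from 24.9 to 596 CPM, and so do those of LY6K, whereas ACE and TEX101 overlap. The share of all genes placed in this way was not counted.

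Since round spermatid markers were lower too, the counts were also divided by the summed counts of these markers, a measure chosen after seeing the data. ADAM2 then gave 49.6, 42.3, 24.8 and 26.6 counts per 1000 round spermatid marker counts, ADAM18 gave 12.7, 11.3, 8.86 and 9.40, and ADAM30 gave 10.2, 10.1, 6.22 and 7.97. On this scale the Ctcf-cKO mean was 55.9%, 76.0% and 69.9% of the WT mean for these 3 genes, and the genotypes did not overlap. ADAM3 (159, 117, 122 and 131), ADAM5 (178, 141, 149 and 151) and ADAM32 (60.9, 56.0, 49.9 and 61.4) overlapped between genotypes, with Ctcf-cKO means of 91.4% to 95.2% of WT. TEX101 and LY6K overlapped as well, and ACE was higher in both Ctcf-cKO mice (25.9, 38.2, 70.1 and 57.9). Among all genes tested, 11.8% were lower and 54.7% higher in both Ctcf-cKO mice on this scale.

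Within the spermatocyte-like and round spermatid-like classes no gene was called between genotypes. In spermatocyte-like cells 0 of 3481 genes (0%) were called by edgeR, 215 had an unadjusted p under 0.05, and the DESeq2 Wald test called 66. None of the 9 genes passed. The largest differences were -1.28 for LY6K (2 standard errors either side, -3.54 to 0.98) and -1.19 for ADAM2 (-2.67 to 0.30), and ADAM2 was low in Ctcf-cKO replicate 1 alone, at 98.4 CPM against 469 to 668 CPM. That library's spermatocyte-like cells carried the 7306 CPM of Leydig markers given above.

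In round spermatid-like cells edgeR again called 0 of 6819 genes (0%), with 375 at an unadjusted p under 0.05 and 13 called by DESeq2, and none of the 9 genes passed. ADAM2 had a log2 fold change of -0.49 (2 standard errors either side, -1.21 to 0.23), ADAM3 of -0.45 (-1.07 to 0.17), ADAM5 of -0.20 (-0.82 to 0.42) and ACE of -0.0026 (-0.72 to 0.71). A change of the ADAM2 size seen in the sum over all barcodes, -1.44, lay outside its interval here, and that of ADAM3, -0.74, lay inside. In spermatocyte-like cells, where the mean ADAM2 level was highest, its interval of -2.67 to 0.30 did include -1.44. In CPM, ADAM2 was lower in both Ctcf-cKO mice than in both WT mice, and ADAM18 too, whereas ADAM3, ADAM5, ADAM30, ADAM32, ACE, TEX101 and LY6K overlapped. How many of all genes were lower in this way was not counted, so no fall is read from these 2 genes. With free RNA subtracted the ADAM2 difference turned to 0.47, and free RNA could make up 36.5%, 62.8%, 89.3% and 20.2% of the counts of these cells. Cluster 4 alone, the round spermatid-like cluster with at least 5 cells in every mouse and a comparison added after seeing the data, gave 0 of 6336 genes called (0%, 315 at an unadjusted p under 0.05). ADAM2 was there at 211, 237, 153 and 147 CPM (-0.58, -1.39 to 0.22) and ADAM3 at 1052, 731, 582 and 873 CPM (-0.35, -0.97 to 0.26).

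In the elongating-marker clusters summed, 16.8% of 3458 genes were called, 13.6% higher and 3.18% lower. Free RNA could make up 23.0%, 31.0%, 55.9% and 84.0% of the counts of these cells. Their median counts per cell were 14140, 11130, 2496 and 1648.5. With free RNA subtracted 0 genes were called, and 0 without batch correction. The part of free RNA and depth in the differences was not tested. With library totals alone the median of all genes moved from 0.05 to 0.35 and the share of calls that were higher from 81.1% to 94.7%. Of the 9 genes 7 were tested, with ADAM18 and ADAM30 too low, and none was called. ADAM3 was at -0.68 (2 standard errors either side, -1.32 to -0.04), with an edgeR p of 0.0514 unadjusted and 0.165 adjusted. LY6K was at -0.92 (-1.95 to 0.11, adjusted p = 0.244 by edgeR). Without WT replicate 2 ADAM3 was called, at -1.19 (adjusted p = 0.0287), and at clustering resolution 1.3 LY6K was called, at -1.56 (adjusted p = 0.0376). Taken by number, cluster 0 had 20% of 2410 genes called, 13.4% higher and 6.64% lower, and 0 of 5 tested genes of the 9, and the share of calls that were higher moved from 66.8% to 85.6% with library totals alone. In cluster 0, ADAM3 was at 753, 384, 309 and 469 CPM (-0.69, -1.27 to -0.12, adjusted p = 0.0806), and ACE at 182, 341, 524 and 288 CPM (0.62, SE 0.34, adjusted p = 0.212), and both overlapped between genotypes. Red blood cell markers in this cluster summed to 300, 165, 10319 and 1438 CPM and Leydig markers to 65.0, 85.3, 1953 and 2633 CPM. Cluster 2 had 0% of 1642 genes called (203 at an unadjusted p under 0.05) and 0 of 4 tested, and ADAM2 in both clusters was too low to test.

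**Figure D4:**
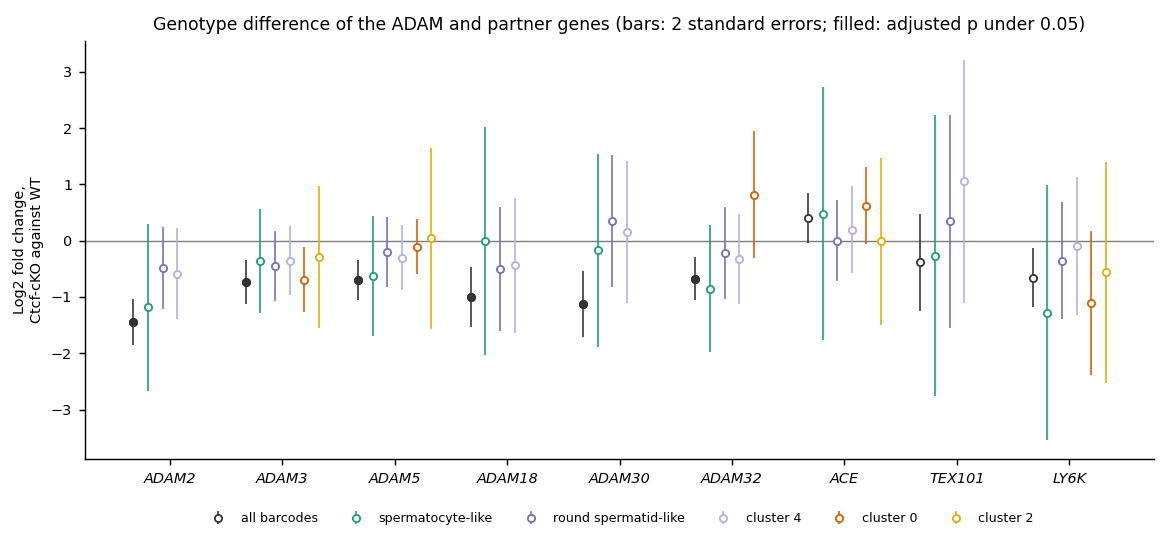
Log2 fold change of Ctcf-cKO against WT (vertical axis) for each gene in the sum over all barcodes and in the classes and clusters (colours), with bars of 2 standard errors from the edgeR fit. Filled points have an adjusted p under 0.05 and are the 6 ADAM genes in all barcodes, from -1.44 for ADAM2 to -0.68 for ADAM32, and every open point missed the threshold.

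Whether the genotype difference changed from round spermatid-like cells to the elongating-marker clusters was tested as an interaction. 0 of 6900 genes (0%) were called, 290 had an unadjusted p under 0.05, and the 9 genes lay between -0.83 (LY6K, SE 0.84) and 2.09 (ADAM18, SE 1.86). The 2 WT and 2 Ctcf-cKO mice are the replicates throughout. In somatic-like cells, which held 10, 6, 51 and 64 cells of several types, 0 of 3258 genes (0%) were called by edgeR, with 343 under 0.05 before adjustment and 4 by DESeq2. ADAM3 was counted there at 621, 424, 250 and 249 CPM, against 962, 767, 598 and 594 CPM in free RNA. ADAM32 was at 177, 386, 59.2 and 249 CPM, against 448, 307, 238 and 254 CPM in free RNA. The part of free RNA in these levels was not tested.

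Other genes of the route were counted from lists. Of 14 chaperones, enzymes and membrane proteins needed for ADAM3 or for passage of the uterotubal junction, 13 were tested in all barcodes, and 5 were lower and 0 higher in Ctcf-cKO mice, beside 10.1% lower and 18.4% higher over all genes. These included LYPD4 (-1.05, SE 0.17, adjusted p = 0.00114), the chaperone CLGN, calmegin (-0.98, SE 0.19, adjusted p = 0.00259), CMTM2A (-0.69, SE 0.16, adjusted p = 0.00826) and the protein disulfide isomerase PDILT (-1.05, SE 0.31, adjusted p = 0.0233). Their median was -0.25, against -0.04 over all genes. From spermatocyte-like to round spermatid-like cells 5 of the 10 tested rose (11.9% over all genes), among them the calreticulin CALR3 (2.53, SE 0.60), GALNTL5 (2.63, SE 0.61), PMIS2 (2.36, SE 0.61) and PDILT (adjusted p = 0.0111), and 3 of 10, LYPD4, CLGN and CMTM2A, fell from there to the elongating-marker clusters (9.48% over all genes). The median was 1.53 in the first contrast and -0.15 in the second, against 0.25 and -0.26 over all genes.

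Of 14 other testis ADAM genes listed, 12 were tested between classes, and 10 were higher in round spermatid-like than in spermatocyte-like cells (11.9% over all genes), with a median of 2.98 against 0.25. ADAM29 (4.16, SE 1.04, adjusted p = 0.00387), ADAM26A (3.56, SE 0.91, adjusted p = 0.00458), ADAM24 (2.56, SE 0.70, adjusted p = 0.00815) and ADAM6A (3.39, SE 0.82, adjusted p = 0.00321) had the smallest adjusted p. ADAM6A has a near copy, ADAM6B, as ADAM1A has ADAM1B, so reads of these pairs could be split in counting. 5 of the 12 fell towards the elongating-marker clusters (9.48% over all genes). In all barcodes, where round spermatid markers were lower too (6512, 6106, 3998 and 3937 CPM), 6 of 14 were lower in Ctcf-cKO mice (10.1% over all genes, median -0.93), with the smallest adjusted p for ADAM26A (-1.90, SE 0.30, adjusted p = 0.000755). Of 7 tested ADAM genes of broad expression 4 were higher in Ctcf-cKO mice (18.4% over all genes), ADAM8, ADAM9, ADAM10 and ADAM23 (2.32 to 3.18), with a median of 2.32. Leydig markers in these sums were at 557, 259, 5085 and 4647 CPM and macrophage markers at 40.1, 229, 1358 and 1432 CPM, and their part was not tested. Of 7 tested genes of the LY6/uPAR fold and GPI-anchor release, SPACA4, LYPD9 and LYPD10 were lower (-0.74, -0.97 and -1.75, beside 10.1% over all genes). LY6E was higher (3.18, beside 18.4% over all genes). In spermatocyte-like and round spermatid-like cells no tested gene of these 4 lists was called between genotypes. LY6E was higher in Ctcf-cKO mice in the elongating-marker clusters (adjusted p = 0.000931 by edgeR), where 471 genes were called higher. With free RNA subtracted 0 genes were called in those clusters. It was also higher in cluster 0 alone, where 322 genes were called higher and 160 lower. GALNTL5 was lower in cluster 0 (-0.94, SE 0.22, adjusted p = 0.000876 by edgeR).

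Genes of like pattern were sought over the 12 class sums, 3 classes in 4 mice, among 4101 genes with at least 200 counts there. The 12 points share libraries and depth, so Pearson's r is a description only. ADAM30 was followed most closely, by LDHAL6B (r = 0.99), ACYP1 (0.98) and LDHA (0.98). ADAM2 ran with HDGFL1 (0.96), RDH11 (0.96) and TTC4 (0.95), ADAM3 with SPAG17, 4932414N04RIK and G2E3 (0.92, 0.92 and 0.89), and ADAM5 with SPEF2, PCF11 and LRRC72 (0.95, 0.93 and 0.93). Among the nearest to ADAM18 were ZSCAN21 and MFN2 (0.97 and 0.94), and the nearest to ADAM32 were ZC3H14, RWDD4A and GMFB (0.95 each). ACE was nearest to PAQR9, BCL2L14 and DCUN1D1 (0.96, 0.95 and 0.95). TEX101 and LY6K had 1 of their 3 in common, SNRPA1 (0.93 and 0.86), beside EIF5A and SPRTN for TEX101 (0.94 and 0.93) and MKRN2 and 1700008K24RIK for LY6K (0.90 and 0.88). Among the 9 genes themselves, ADAM2 and ADAM18 (0.90) and ADAM30 and ADAM32 (0.90) were the closest pairs, and ACE had a negative r with each of the other 8, from -0.61 with ADAM2 to -0.38 with ADAM3.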

How the data were processed

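Testis cells of 2 WT and 2 Ctcf-cKO mice were sequenced as 3′ libraries with a droplet system. The authors deposited raw counts per gene symbol and barcode, 1 table per mouse, from reads aligned to GRCm38; the counting tool, the use of strand and the merging of reads of 1 molecule are not given in the sources used here, so intervals and limits cover counting error only. A count of 0 allows 3 counts.

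Cells had 200 to 7000 genes, at most 10% mitochondrial counts and at least 3 times the median count of barcodes ranked 300 to 1000, a limit chosen with earlier results known. They were clustered without the 9 genes on 2000 variable genes, 15 principal components and a Harmony-type correction for mouse (resolution 0.9), and doublets marked by Scrublet (scanpy 1.11.5) were left in. Summed counts per mouse and class were tested with the edgeR 4.0.16 quasi-likelihood test in R 4.3.3 (TMM factors, filterByExpr, Benjamini-Hochberg adjustment, threshold 0.05), with DESeq2 1.42.0 as an alternative. Classes needed at least 5 cells per mouse. The test was checked on simulated data.

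The 9 genes and the lists were chosen with earlier results of these data known. At most the 4 genes of a list with the smallest adjusted p were named, and for each of the 9 genes the 3 most similar by Pearson's r of log2 CPM, of which 1 is not reported here. Each replicate is 1 mouse, so p-values rest on 2 mice per group. Other scalings, filters, cell limits, clusterings, doublets, free RNA and leaving out each mouse were tried.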

Additional observations from a re-analysis of the deposited data

How the results depend on the processing

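No paired comparison of genotypes was possible because no label pairs a WT with a Ctcf-cKO mouse. The replicate numbers (1 and 2 in WT, 1 and 3 in Ctcf-cKO) only name mice. Leaving out a mouse leaves a lone mouse that is assumed to vary like the other group. Of the fold changes of the 9 genes under other settings, 653 kept direction and side of the threshold, 26 lost the call, 11 gained it and 64 changed sign; the cause was not tested. Few cells and counts per class limit the precision, and fits against a library at 0 give no bound. Clusters 0, 2 and 4 alone were added after seeing the data.

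Values are log2 differences. The first contrast is round spermatid-like minus spermatocyte-like cells, the second the elongating-marker clusters minus round spermatid-like cells. Unless stated, ACE is given between genotypes in round spermatid-like cells, ADAM30 in the first and ADAM3 in the second contrast, and a pair for ADAM18 is between genotypes in spermatocyte-like cells and then in the first contrast. With library totals alone, 4 genes were called in round spermatid-like cells, and 1 and 4 of the 9 genes in the first and the second class contrast. Of all genes, that scaling called 492 higher and 333 lower in the first contrast and 164 higher and 1466 lower in the second. ADAM18 was 0.049 between genotypes in spermatocyte-like cells and -0.51 in the first class contrast, ACE 0.093 in round spermatid-like cells and TEX101 0.034 in the elongating-marker clusters. With DESeq2 size factors 1 of the 9 was called in the first contrast, and ADAM18 was 0.044 and -0.30, ACE 0.00034 and ADAM3 0.12 in the second contrast. The DESeq2 Wald test called 66, 13 and 4 genes in spermatocyte-like, round spermatid-like and somatic-like cells, 1775 in the second contrast and 1 of the 9 in the first, with ADAM18 at 0.15 and -0.30 and ADAM3 at 0.12. With no filter, 61, 67 and 19 genes were called in these classes and 1 of the 9 in the first contrast, with ACE at -0.010 in the elongating-marker clusters and ADAM30 at 0.11 in the first contrast.

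At 2 times the plateau ADAM18 was 0.29 and -0.059, ADAM30 0.23 between genotypes in spermatocyte-like cells, ACE 0.11 and ADAM3 0.083, and 2 of the 9 were called in the second contrast. Without doublets ADAM18 was 0.18 in spermatocyte-like cells and ADAM30 0.21, with 2 called in the second contrast. With free RNA subtracted, TEX101 was 0.26 in spermatocyte-like cells, ADAM2 0.47 in round spermatid-like cells, ADAM18 -0.46 in the first and LY6K -0.33 in the second contrast, with 0 genes called in the elongating-marker clusters and 2 of the 9 in the second contrast. With at least 500 genes per cell ACE was 0.033, ADAM30 0.049 and ADAM3 0.069, with 0 called in the second contrast. Above the knee ACE was 0.28, and in the elongating-marker clusters 250 genes were called, with ADAM2 at -1.30, ADAM32 at -0.32 and TEX101 at 0.50. Without batch correction ACE was 0.41, 0 genes were called there, and ADAM2 was -0.94 and ADAM32 -0.37. With the 9 genes kept in clustering ACE was 0.023 and ADAM30 0.075, with 1 called in the first contrast. At resolution 1.3 ADAM5 was 0.044 and 1 of the 9 (LY6K) called in the elongating-marker clusters, with 1 and 0 in the first and second contrast. Cluster 4 alone gave ACE 0.19, and cluster 2 alone, set against the elongating-marker sum, 0 genes, ADAM5 0.038 and ACE -0.012. Above the knee could not be fitted for spermatocyte-like and somatic-like cells and the contrasts, nor no batch correction for spermatocyte-like cells and the contrasts. Before thinning, shares of round spermatid-like cells were 50.3% for ADAM2, 84.9% for ADAM3, 88.1% for ADAM5, 27.8% for ADAM18, 29.1% for ADAM30, 67.3% for ADAM32, 63.4% for ACE, 16.1% for TEX101 and 47.4% for LY6K.

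Without 1 mouse, genes called ranged from 0 to 103 in spermatocyte-like cells, 2 to 84 in round spermatid-like cells, 225 to 749 in the elongating-marker clusters, 4 to 649 in somatic-like cells, 1710 to 4444 in all barcodes, and 410 to 1037 and 308 to 861 in the contrasts. Of the 9 genes, 0 to 1 were called in the elongating-marker clusters, 1 to 7 in all barcodes, 1 to 1 in the first and 0 to 0 in the second contrast. In spermatocyte-like cells ADAM18 ranged from -2.43 to 0.90, ADAM30 from -1.25 to 0.29, ACE from -0.41 to 3.40 and TEX101 from -9.65 to 0.72. In round spermatid-like cells ADAM30 ranged from -0.26 to 0.73, ADAM32 from -0.90 to 0.16, ACE from -0.44 to 0.15, TEX101 from -0.41 to 1.72 and LY6K from -0.94 to 0.39. Elsewhere ACE ranged from -0.56 to 0.66 and TEX101 from -1.44 to 1.93 in the elongating-marker clusters, TEX101 from -1.20 to 0.28 in all barcodes, ADAM18 from -0.34 to 0.58 and ADAM30 from -0.37 to 0.073 in the first contrast, and ADAM3 from -0.29 to 0.17 in the second.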
